A study of Rattus norvegicus with 12 samples.

Results

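The genes described here are 10 rat genes that carry fatty acids into muscle cells, release them from stored fat and burn them, and that switch the fuel: *Cd36*, *Fabp3*, *Pnpla2*, *Cpt1b*, *Cpt2*, *Acadvl*, *Acadm*, *Hadha*, *Pdk4* and *Ppard*. They were chosen by name, and a probe was assigned to a gene through the RefSeq accession it was designed on. The array held 13 probes for them, 11 of these were tested, and 9 of the 10 genes had a tested probe, out of 10740 genes with a named tested probe in the whole series. The untested gene was *Pdk4*. In skeletal muscle, long-chain fatty acids cross the plasma membrane with the help of transporters, travel on binding proteins in the cytosol, and are either stored in lipid droplets or activated to acyl-CoA. Carnitine esters carry the acyl groups into mitochondria, where beta-oxidation shortens them step by step to acetyl-CoA. Fatty acids also act as ligands of nuclear receptors of the PPAR family, which raise the transcription of many of these genes, and muscle spares glucose when fat is burnt by shutting the pyruvate dehydrogenase complex.

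RNA was taken from myotubes of L6, a rat skeletal muscle line, on day 6 of differentiation according to the labels, while the study's methods have the GR24 treatment itself given at a later day. Cells had been exposed for 24 h to 60 µM of GR24, a synthetic strigolactone, or of pinosylvin or resveratrol, plant stilbenes of which resveratrol carries an additional hydroxyl group. The control cells received the solvent DMSO alone, which the treated cells also received, and each of the 4 groups had 3 arrays, 12 in all. The series entry gives 3 independent experiments on cells of a single batch, so p-values measure the spread between experiments on 1 batch of 1 cell line, and the number of arrays limits their precision.

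Every array had 58717 spots besides its control spots, of which 58.0% to 64.3% were well above background by the mark in the deposited scanner output, and 0 spots were saturated. The deposited processed signal is an intensity with background subtracted. All levels below are log2 of that signal, less the array's own 75th percentile over its probes, so that 0 is the level of that percentile and a dim probe is negative. Levels depend on the probe and are compared between groups, not between genes. Tested probes were those with the well-above-background mark on each of the 3 arrays of some group, 24278 in number. Adjusted p-values come from limma's moderated test in 1 fit of all 12 arrays, with Benjamini-Hochberg adjustment over all tested probes, and a gene was called higher or lower at an adjusted p under 0.05. Each gene is represented by its brightest probe. The 3 comparisons with the control share the 3 control arrays, so they are given side by side and not counted against each other. Slide 1 held 8 arrays, replicates 1 and 2 of each group, and slide 2 the other 4. On both slides the control arrays were in column 1, GR24 in column 2, pinosylvin in column 3 and resveratrol in column 4, so that column and treatment cannot be told apart.

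The control cells had the transcripts of myotubes. All 13 myotube markers on the array were well above background on every control array, among them *Myog*, the myogenic regulator myogenin, and *Myh3*, the embryonic myosin heavy chain, whose probe gave the largest share of their summed signal over the 12 arrays. Of the adipocyte markers, *Adipoq*, *Lep*, *Retn*, *Cidec* and *Pparg* were not well above background on any array, *Fabp4* was so on 1 GR24 array and 1 resveratrol array, and only *Cfd* was tested, which made up most of a summed adipocyte signal of 1.28 to 2.08 times the 75th percentile over all arrays. Myotube markers were lower with GR24 than in the control. The summed myotube signal, in multiples of the array's 75th percentile, was 981 to 1112 on the control arrays and 397 to 427 with GR24, with 10 of 13 genes lower, 0 higher and a median log2 fold change of -1.84 (-1.68 with *Myod1*, which was not well above background with GR24, at its bound). The 10 lower genes were kept with each of 6 other scalings of the signal, but the median was smaller with normexp, -1.15 with the 75th percentile and -1.05 with quantile normalization, and was -1.06 in the authors' table. At an unadjusted p under 0.05 in limma the number of higher myotube genes was also 0. The sum was 1065 to 1153 with pinosylvin and 832 to 920 with resveratrol. The summed signal of undifferentiated or fibroblast-like cell markers, with the largest share over the 12 arrays from the *Fn1* probe, was 550 to 593 in the control, 289 to 329 with GR24, 475 to 500 with pinosylvin and 473 to 489 with resveratrol. That of cycling cell markers, with the largest share from the *Cdk1* probe, was 101 to 108 in the control, 29.7 to 32.4 with GR24, 48.5 to 50.8 with pinosylvin and 58.8 to 64.5 with resveratrol. In the 6 comparisons below, fewer cells of a kind and less RNA per cell cannot be told apart.

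With GR24, 4 of the 9 tested genes were higher than in the control, where 31.5% of all tested probes were higher, and 2 were lower, where 25.5% were lower. The higher genes were *Acadvl*, *Ppard*, *Pnpla2* and *Acadm*, and the lower genes were the uptake and binding pair *Cd36* and *Fabp3*. The count of 4 higher genes was not steady. Leaving out a single GR24 or control array, whichever it was, gave 2 or 3, where 28% to 31.2% of all tested probes were higher. No filter on dim probes gave 2, where 15.4% of the probes were higher. The count was 3 with normexp and the 75th percentile, the percentile over probes above background on all arrays, only the 6 arrays compared, and eBayes with trend and robust. In those fits 29.2% to 32.5% of tested probes were higher. The count was 5 with quantile normalization, with or without normexp, with the percentile over spots and in the authors' table, with or without the slide as a block. There the share was 33.1% to 38%. In each of these fits 2 genes were lower, beside 12.8% of probes with no filter and 21.2% to 25.7% otherwise. With pinosylvin, 2 of 9 were higher against a background of 8.28%, again *Cd36* and *Fabp3*, and 0 were lower against 8.27%, a number that was also 0 at an unadjusted p under 0.05 in limma. With resveratrol, 0 of 9 were higher in the limma fit against 7.99%, or 2 at an unadjusted p under 0.05, and 1 was lower against 8.99%, namely *Cd36*. The median log2 fold change of the 9 genes was 0.27 with GR24, 0.083 with pinosylvin and 0.14 with resveratrol, beside medians over all tested probes of 0.027, 0.054 and 0.010. On slide 1 the medians of the 9 genes were 0.27, 0.098 and 0.22, and on slide 2, where no test was possible, 0.17, 0.044 and 0.079. Over the other settings that held the 9 genes, slides included, the medians ran from 0.17 to 0.38, 0.044 to 0.098 and 0.079 to 0.22, and with arrays left out from 0.20 to 0.34 with GR24, 0.0079 to 0.088 with pinosylvin and 0.13 to 0.19 with resveratrol. No filter on dim probes, which adds *Pdk4*, gave medians of the 10 genes of 0.13, 0.055 and 0.14. The medians over all probes were then 0.12, 0.11 and -0.13. With the replicate block, which pairs arrays of the same replicate number, the counts of higher and lower genes became 5 and 3 with GR24, 3 and 0 with pinosylvin, and 3 and 1 with resveratrol. The shares of all tested probes rose with this block too, to 36.2% higher and 30.3% lower with GR24, 16.3% and 12.3% with pinosylvin, and 14.1% and 13.8% with resveratrol. With the slide as a block the counts of the 9 genes were those of the replicate block except for 4 higher with resveratrol, where *Acadm* also passed (adjusted p = 0.0437). The shares of all tested probes were then 36.2% and 30.4% with GR24, 16.6% and 12.5% with pinosylvin, and 14.5% and 13.8% with resveratrol.

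**Figure D1:**
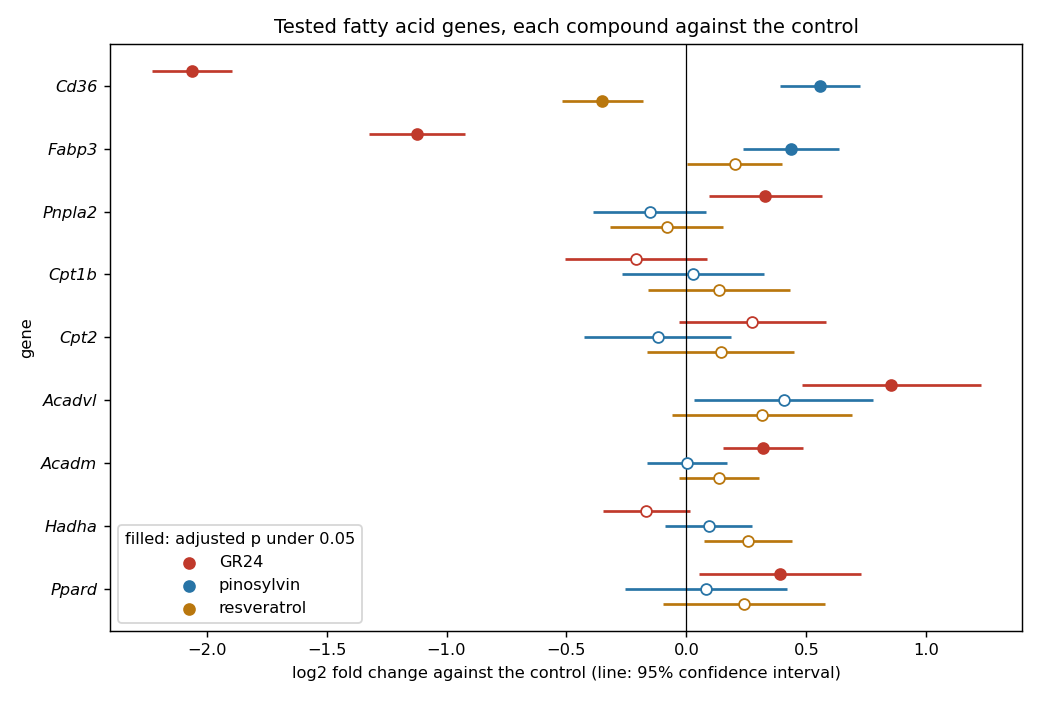
Log2 fold change against the control (x axis) of the 9 tested genes (y axis) for each compound, with 95% confidence intervals as lines and filled points where the adjusted p was under 0.05. *Fabp3* fell with GR24 by 1.12 and *Acadvl* rose by 0.85, while the point of *Cd36* with GR24 rests on signal near background and stands for a change of at least 3.02-fold with this background correction.

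*Cd36* encodes a membrane protein that binds long-chain fatty acids and eases their entry into the cell. Its level was -4.08, -4.07 and -4.17 on control arrays 1 to 3 and -6.14, -6.13 and -6.23 with GR24. It was -3.59, -3.52 and -3.54 with pinosylvin and -4.30, -4.50 and -4.57 with resveratrol. The 4 groups did not overlap: pinosylvin arrays were the highest, then control, then resveratrol, and GR24 arrays the lowest, and each neighbouring pair in that order differed past the threshold in limma. On none of the 3 GR24 arrays was the probe, which is spotted 10 times per array, well above background. Against the control its log2 level fell by 2.06 with GR24 (SE 0.076, 95% confidence interval -2.23 to -1.89, adjusted p = 7.44e-09). Because the GR24 signal was near background, the change is better given as a bound: at least 3.02-fold lower, with the dim level replaced on each array by the lowest signal well above background wherever it was under it. That bound holds for this background correction only. With normexp correction and the 75th percentile the change was smaller than the bound, -0.52 on the log2 scale or 1.44-fold, and in the authors' table of normalized values it was -0.87 or 1.83-fold, both called. Within slides the value was -2.06 on slide 1 and -2.06 on slide 2.

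Pinosylvin was the only compound whose arrays lay above the control arrays for *Cd36*, with a log2 fold change of 0.56 (SE 0.076, 95% confidence interval 0.39 to 0.72, adjusted p = 0.000666 in limma), a 1.47-fold increase. It was 0.52 on slide 1 and 0.63 on slide 2. The size depended on the background correction, with 0.26 (adjusted p = 0.0465) for normexp and the 75th percentile, 0.24 for normexp and quantile normalization and 0.37 in the authors' table, all called. With resveratrol *Cd36* fell by 0.35 (SE 0.076, 95% confidence interval -0.52 to -0.18, adjusted p = 0.0100), 1.27-fold, with -0.33 on slide 1 and -0.40 on slide 2. This call was lost under 7 of the other settings, with a log2 fold change of -0.17 (adjusted p = 0.193) with normexp and the 75th percentile and -0.08 (adjusted p = 0.616) in the authors' table. A second *Cd36* probe was near background, well above it on 1 resveratrol array alone, and was not tested.

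*Fabp3* encodes the heart-type binding protein that carries fatty acids through the cytosol of muscle cells. Its level was 1.70, 1.68 and 1.59 on the control arrays and 0.65, 0.45 and 0.51 with GR24. With pinosylvin it was 2.15, 2.17 and 1.97, and with resveratrol 1.95, 1.92 and 1.71. Again the 4 groups did not overlap, in the order pinosylvin, resveratrol, control and GR24, but only the GR24 arrays stood well apart, and the resveratrol arrays lay just above the control arrays and just below the pinosylvin arrays. With GR24 it fell by 1.12 on the log2 scale (SE 0.090, 95% confidence interval -1.32 to -0.92, adjusted p = 2.05e-06 in limma), 2.18-fold, with -1.14 on slide 1 and -1.08 on slide 2. With pinosylvin it rose by 0.44 (SE 0.090, 95% confidence interval 0.24 to 0.64, adjusted p = 0.00789), 1.35-fold, with 0.47 and 0.37 on the slides. With resveratrol the value was 0.20 (SE 0.090, adjusted p = 0.170), which did not pass, and with the replicate block the adjusted p was 0.0440. The group means and spreads were 1.66 ± 0.059 (SD, n = 3) in the control, 0.53 ± 0.10 with GR24, 2.09 ± 0.11 with pinosylvin and 1.86 ± 0.13 with resveratrol. Myotube markers were also lower with GR24, as given above, and with resveratrol 7 of 13 of them were lower and 0 higher in limma (0 at an unadjusted p under 0.05), with a median of -0.32. With pinosylvin 2 of 13 were higher, *Myog* by 0.73 and *Tnnt3* by 0.54, and 1 was lower (5 and 2 with the replicate block). The part of these markers in the *Cd36* and *Fabp3* results was not tested.

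**Figure D2:**
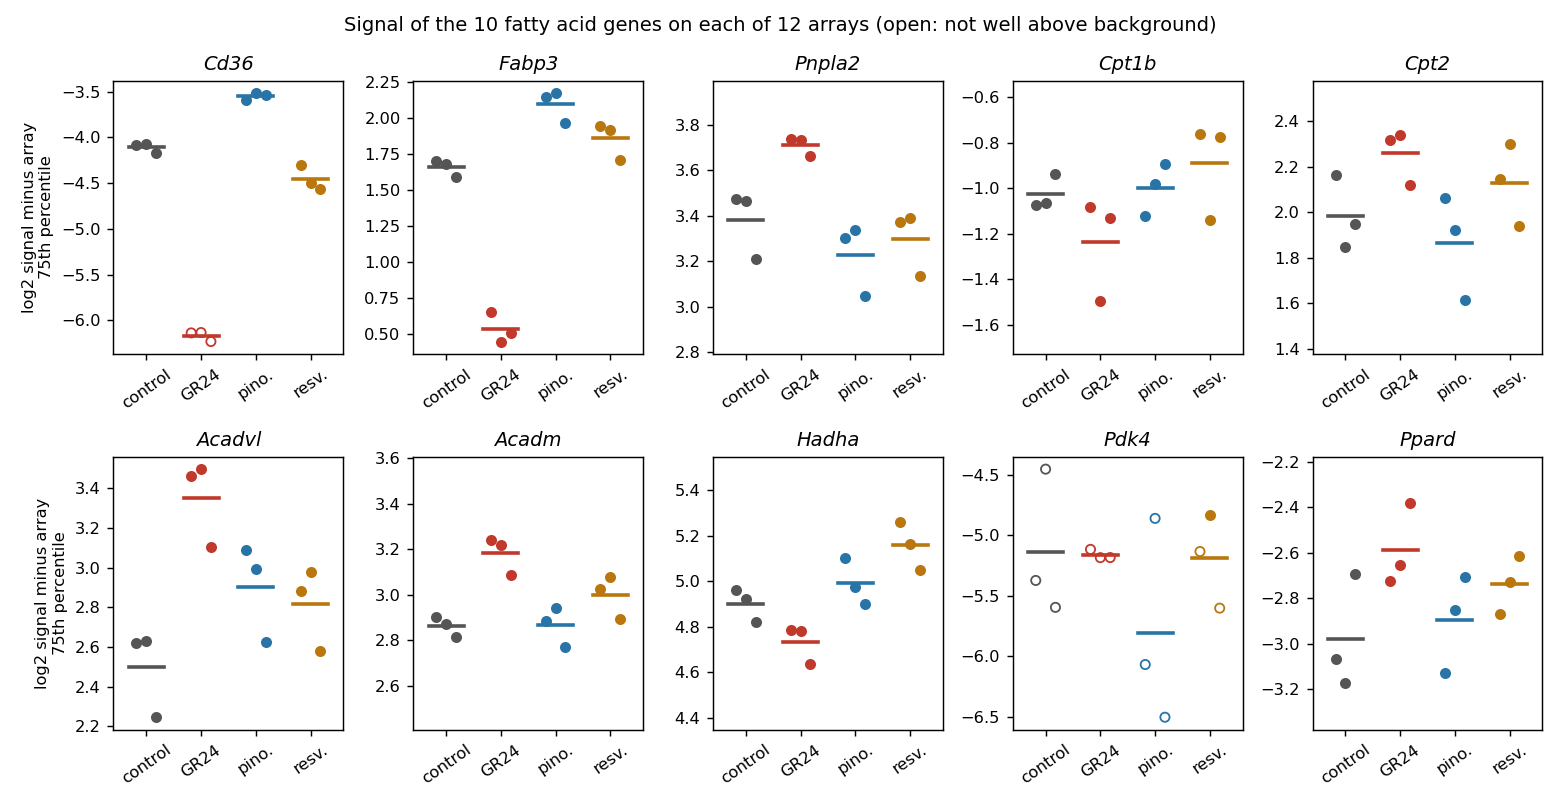
Log2 processed signal less the array's 75th percentile (y axis) for the 10 genes in the 4 groups (x axis), with a point per array and a bar at the mean of 3, and open points where the probe was not well above background. *Cd36* separates all 4 groups with the scaling shown, from -3.52 on the highest pinosylvin array to -6.23 on the lowest GR24 array. Its call for resveratrol against the control was lost under 7 other settings, with a log2 fold change of -0.08 in the authors' table. *Pdk4* is open on all but 1 array.

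*Pnpla2* encodes adipose triglyceride lipase, which removes the first fatty acid from stored triacylglycerol. Its level was 3.47, 3.46 and 3.21 on the control arrays and 3.74, 3.73 and 3.66 with GR24, so the GR24 arrays were all above the control arrays. It was 3.30, 3.34 and 3.05 with pinosylvin and 3.37, 3.39 and 3.14 with resveratrol, ranges that overlapped the control. The array of replicate 3 was the lowest in every group. With GR24 it rose by 0.33 (SE 0.11, adjusted p = 0.0216 in limma), and it was 0.27 on slide 1 and 0.45 on slide 2. The call was lost with no filter on dim probes and without GR24 replicate 1, GR24 replicate 2 or control replicate 3, with adjusted p up to 0.0822. Against the control the log2 fold changes with pinosylvin and resveratrol, -0.15 (adjusted p = 0.387) and -0.08 (adjusted p = 0.695), did not pass. GR24 was above pinosylvin by 0.48 (adjusted p = 0.00276) and above resveratrol by 0.41 (adjusted p = 0.00772).

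*Cpt1b* encodes the muscle form of carnitine palmitoyltransferase 1, the enzyme of the outer mitochondrial membrane that makes acylcarnitine and sets the pace of fatty acid entry. Its level was -1.08, -1.06 and -0.94 in the control, -1.08, -1.50 and -1.13 with GR24, -1.12, -0.98 and -0.89 with pinosylvin, and -0.76, -1.14 and -0.77 with resveratrol. The GR24 arrays lay below the control arrays by a margin smaller than the last printed digit, all other pairs of groups overlapped, and 1 GR24 array and 1 resveratrol array were lower than the rest of their group. No comparison passed the threshold, and the nearest was GR24 against resveratrol, -0.35 (SE 0.13, adjusted p = 0.0506 in limma), which passed under 7 other settings, among them the replicate block (adjusted p = 0.0192) and quantile normalization (adjusted p = 0.0342). Against the control the log2 fold changes were -0.21 (95% confidence interval -0.51 to 0.08) with GR24, 0.03 (-0.27 to 0.32) with pinosylvin and 0.13 (-0.16 to 0.43) with resveratrol. *Cpt2* encodes the inner membrane enzyme that turns acylcarnitine back into acyl-CoA. Its levels were 1.85 to 2.16 in the control, 2.12 to 2.34 with GR24, 1.61 to 2.06 with pinosylvin and 1.94 to 2.30 with resveratrol, and each of these ranges overlapped the control. The GR24 arrays lay above the pinosylvin arrays, a difference of 0.39 (SE 0.14, adjusted p = 0.0317), and this call was lost under 7 other settings, among them without GR24 replicate 1 or 2 or pinosylvin replicate 2 or 3 (adjusted p up to 0.121). With GR24 against the control the value was 0.27 (SE 0.14, adjusted p = 0.117), and within slides it was 0.32 and 0.17. It passed under 7 other settings, among them the replicate block (adjusted p = 0.0353), quantile normalization (0.38, adjusted p = 0.0211) and the authors' table (0.35, adjusted p = 0.0291).

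*Acadvl* encodes very long-chain acyl-CoA dehydrogenase, which takes the first oxidative step on long acyl chains at the inner membrane. Its level was 2.62, 2.63 and 2.25 in the control and 3.46, 3.50 and 3.10 with GR24. It was 3.09, 2.99 and 2.63 with pinosylvin and 2.88, 2.98 and 2.58 with resveratrol. Every GR24 array lay above every control array and above every pinosylvin and resveratrol array, while the last 2 groups overlapped the control. In each group the array of replicate 3, the one on slide 2, was the lowest. The increase with GR24 was 0.85 (SE 0.17, 95% confidence interval 0.48 to 1.23, adjusted p = 0.00130 in limma), 1.81-fold, with 0.85 on slide 1 and 0.86 on slide 2. With pinosylvin it was 0.40 (SE 0.17, adjusted p = 0.137) and with resveratrol 0.31 (SE 0.17, adjusted p = 0.252). Neither passed, but with the replicate block, which takes out the lower level of replicate 3, both did, with adjusted p of 0.000620 and 0.00220. They passed under 5 and 4 other settings in all.

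*Acadm* encodes the medium-chain acyl-CoA dehydrogenase. Its level was 2.90, 2.87 and 2.81 in the control, 3.24, 3.22 and 3.08 with GR24, 2.88, 2.94 and 2.77 with pinosylvin, and 3.02, 3.08 and 2.89 with resveratrol. GR24 arrays lay above all others, and the ranges of pinosylvin and resveratrol overlapped that of the control. The increase with GR24 was 0.32 (SE 0.075, adjusted p = 0.00386), 1.25-fold, with 0.35 and 0.27 on the slides. *Hadha* encodes the alpha subunit of the mitochondrial trifunctional protein, which carries out later steps on long chains. Its level was 4.96, 4.92 and 4.82 in the control, 4.79, 4.78 and 4.64 with GR24, 5.10, 4.97 and 4.90 with pinosylvin, and 5.26, 5.17 and 5.05 with resveratrol. With this brightest probe, GR24 arrays lay below the arrays of the other groups, and resveratrol arrays above the control arrays. Neither difference from the control passed: -0.17 (SE 0.082, adjusted p = 0.109) with GR24 and 0.26 (SE 0.082, adjusted p = 0.0575) with resveratrol, and with the replicate block the adjusted p were 0.00861 and 0.00332. The first passed under 2 other settings in all and the second under 10, among them quantile normalization (adjusted p = 0.0224) and the authors' table (adjusted p = 0.0397). GR24 against resveratrol did pass, -0.42 (SE 0.082, adjusted p = 0.00140), as did 1 of 2 other tested *Hadha* probes, with -0.43 (adjusted p = 0.0190) beside -0.26 (adjusted p = 0.145).

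*Pdk4* encodes the kinase that shuts the pyruvate dehydrogenase complex and so spares glucose. Its level was -5.37, -4.45 and -5.60 in the control, -5.12, -5.18 and -5.18 with GR24, -6.07, -4.86 and -6.50 with pinosylvin, and -5.13, -4.83 and -5.60 with resveratrol. The groups overlapped, and the probe was well above background on 1 array alone, of resveratrol, so a difference in *Pdk4* was not detectable at this signal and no fold change is given. *Ppard* encodes PPAR delta, the fatty acid receptor of that family best known in muscle. Its level was -3.07, -3.17 and -2.69 in the control, -2.73, -2.65 and -2.38 with GR24, -3.13, -2.85 and -2.70 with pinosylvin, and -2.87, -2.73 and -2.62 with resveratrol. Replicate 3 was the highest of each group and the groups overlapped. With GR24 it rose by 0.39 (SE 0.15, adjusted p = 0.0485 in limma), 0.43 on slide 1 and 0.31 on slide 2. It was just past the threshold and was lost under 9 other settings, among them normexp with the 75th percentile and without replicate 1 or 2 of the control or 2 or 3 of GR24, with an adjusted p of at most 0.165. It passed with the replicate block (adjusted p = 0.00225 in limma) and with the slide as a block (adjusted p = 0.00221). With pinosylvin it was 0.08 (adjusted p = 0.792) and with resveratrol 0.24 (adjusted p = 0.348).

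Pinosylvin and resveratrol were compared directly at the same dose and time, as 1 of 6 pairwise comparisons of the 4 groups. Of the 9 genes 1 was higher with pinosylvin, against a background of 7.68%, and 0 were lower, against 6.85%, also 0 at an unadjusted p under 0.05 in limma. The gene was *Cd36*, 0.91 higher on the log2 scale (SE 0.076, 95% confidence interval 0.74 to 1.07, adjusted p = 5.31e-05), 1.87-fold, with 0.85 on slide 1 and 1.03 on slide 2. It was smaller, though called, with normexp, 0.43 with the 75th percentile and 0.31 with quantile normalization, and in the authors' table, 0.45. In this comparison 9 of 13 myotube markers were higher with pinosylvin and 0 lower in limma (also 0 at an unadjusted p under 0.05), with a median of 0.40, and of the cycling cell markers 1 of 8 was higher and 7 were lower. The adipocyte marker *Cfd* was higher by 0.39, and of 10 undifferentiated cell markers *Id1* and *Id2* were lower and 0 higher (also 0 at an unadjusted p under 0.05 in limma). The part of these markers in the difference was not tested. For *Fabp3* the difference was 0.24 (95% confidence interval 0.04 to 0.44, adjusted p = 0.113), and it passed under 5 other settings, among them the replicate block (adjusted p = 0.0257). For *Hadha* it was -0.16 (95% confidence interval -0.35 to 0.02, adjusted p = 0.225), and it passed under 3, among them the replicate block (adjusted p = 0.0262). The intervals of the other differences were -0.31 to 0.17 for *Pnpla2*, -0.40 to 0.19 for *Cpt1b*, -0.57 to 0.04 for *Cpt2*, -0.28 to 0.46 for *Acadvl*, -0.30 to 0.04 for *Acadm* and -0.49 to 0.18 for *Ppard*. An adjusted p that misses the threshold does not show that the stilbenes act alike on these genes. The median of the 9 genes was -0.11, beside 0.022 over all tested probes. It ran from -0.11 to -0.031 over the other settings that held the 9 genes, nearest to 0 with normexp and the 75th percentile, and from -0.12 to -0.042 with arrays left out.

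GR24 was likewise set against each stilbene. Against pinosylvin 4 of 9 genes were higher, with a background of 29.6%, and 3 were lower, with 26.8%, and the medians were 0.31 for the 9 genes and -0.0030 for all tested probes. Against resveratrol 2 were higher, with 27.4%, and 3 lower, with 23.9%, with medians of 0.13 and 0.024. Over the other settings that held the 9 genes the medians ran from 0.16 to 0.40 against pinosylvin and from 0.085 to 0.24 against resveratrol, and with arrays left out from 0.19 to 0.33 and from 0.038 to 0.16. No filter on dim probes gave medians of the 10 genes of 0.31 and 0.080, beside -0.0078 and 0.24 over all probes. Against pinosylvin 13 of 13 myotube markers were lower with GR24, with a median of -1.48, as were 7 of 10 undifferentiated cell markers (2 higher), 6 of 8 cycling cell markers (1 higher) and the adipocyte marker *Cfd*. Against resveratrol 10 of 13 myotube markers, 5 of 10 undifferentiated (1 higher) and 7 of 8 cycling cell markers were lower. Their part in these differences was not tested. *Cd36* was at least 4.44-fold lower than with pinosylvin and at least 2.37-fold lower than with resveratrol, bounds that hold for this background correction only. With normexp and the 75th percentile these differences were 1.72-fold and 1.28-fold, and with the authors' values they were 2.36-fold and 1.73-fold, all called. *Fabp3* fell by 1.56 and by 1.32 on the log2 scale (adjusted p = 2.17e-07 and 9.26e-07 in limma). *Hadha* fell by 0.26 and 0.42 (adjusted p = 0.0200 and 0.00140). The first *Hadha* call was lost under 5 other settings, among them without pinosylvin replicate 1 or GR24 replicate 3 (adjusted p at most 0.0803). Against pinosylvin the other tested *Hadha* probes did not pass in limma, with -0.27 (adjusted p = 0.116) and -0.31 (adjusted p = 0.0809). *Acadvl* was higher by 0.45 and 0.54 (adjusted p = 0.0418 and 0.0204), the first lost under 6 other settings, among them without GR24 replicate 1 or 2 or pinosylvin replicate 2 or 3 (adjusted p up to 0.155), and the second under 4, among them without GR24 replicate 1 or 2 or resveratrol replicate 3 (adjusted p up to 0.0811). *Acadm* was 0.32 higher than with pinosylvin (adjusted p = 0.00433), and 0.18 higher than with resveratrol (adjusted p = 0.0624, passing under 11 other settings, with 0.00662 for the replicate block). *Ppard* was 0.31 above pinosylvin (adjusted p = 0.111, passing under 6 other settings, with 0.00815 for the replicate block).

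The members differed in how much the treatments set the groups apart. The moderated F over the 4 groups was 446 for *Cd36* and 118 for *Fabp3*, from 8.08 to 9.34 for *Hadha*, *Acadvl*, *Acadm* and *Pnpla2*, and from 2.37 to 3.08 for *Cpt2*, *Ppard* and *Cpt1b*. These values, and their order, are those of the fit without the replicate block. With that block in limma, the adjusted p of GR24 against the control was 1.17e-06 for *Acadvl* and 0.000252 for *Acadm*. It was 0.000703 for *Pnpla2* and 0.00861 for *Hadha*. Since the *Cd36* signal with GR24 was near background, its F, its first place and the list of genes that follows hold for this background correction only. The 5 genes whose levels followed those of *Cd36* most closely over the 12 arrays, of 10735 compared, were *Celf2*, *Rassf4*, *Slc51a*, *Fitm1* and *Smpx*, with Pearson's r of 0.996 to 0.999 and Spearman's rho of 0.951 to 0.986. These arrays fall into 4 groups that *Cd36* separates, so the values describe a shared pattern of group levels.

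Lists of 101 fatty acid genes, written for 10 steps of the pathway, gave the surroundings of the 10 genes. Of their 83 tested genes, 34 were higher and 19 lower with GR24, 6 higher and 1 lower with pinosylvin, and 6 higher and 3 lower with resveratrol, with medians of 0.16, 0.059 and 0.065. Over all tested probes the shares higher and lower, given above, were 31.5% and 25.5% with GR24, 8.28% and 8.27% with pinosylvin, and 7.99% and 8.99% with resveratrol, and the called counts of each list below are to be read against them. At an unadjusted p under 0.05 the last 2 pairs of the 83 genes were 12 and 9, and 14 and 7. At that level the shares of all tested probes were 33.5% and 27.1% with GR24, 17.0% and 12.6% with pinosylvin, and 15.2% and 14.1% with resveratrol, which stand behind each unadjusted count. With the replicate block the 2 pairs were 12 and 9, and 16 and 8, and behind each count with that block stand its own shares, 36.2% and 30.3%, 16.3% and 12.3%, and 14.1% and 13.8%. With 6 other scalings of the signal the 83 genes had 34 to 40 higher and 17 to 19 lower with GR24, 6 to 8 and 1 to 5 with pinosylvin, and 6 to 9 and 2 to 6 with resveratrol, and the median with GR24 ran from 0.15 to 0.26. The 74 tested genes outside the 10 had 30 higher and 17 lower with GR24, 4 and 1 with pinosylvin (9 and 9 with the replicate block), and 6 and 2 with resveratrol (13 and 7 with the replicate block).

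Around *Cd36* and *Fabp3*, the uptake and binding list had 4 of 8 tested genes lower with GR24 and 1 higher, with a median of -0.32 (-0.32 to -0.18 over the 6 other scalings). *Lpl*, the lipase that frees fatty acids from lipoproteins, fell by 1.57 (SE 0.075, adjusted p = 4.17e-08 in limma), the receptor gene *Vldlr* was lower too, and the transport protein gene *Slc27a4* was higher (2 higher with the replicate block). With pinosylvin 4 of these 8 genes were higher and 0 lower in limma (1 lower at an unadjusted p under 0.05, and 1 with the replicate block), with a median of 0.38. They were *Cd36*, *Fabp3*, *Slc27a1* and *Vldlr*, the last by 0.59 (SE 0.12, adjusted p = 0.00854). With resveratrol *Vldlr* was higher by 0.54 (SE 0.12, adjusted p = 0.0134) and *Lpl* fell by 0.47 (SE 0.075, adjusted p = 0.00167) beside *Cd36*, and with the replicate block 3 were higher and 2 lower. In the activation list, whose enzymes make acyl-CoA, 1 of 7 genes was higher with GR24, *Acsl5* by 1.12 (SE 0.11, adjusted p = 7.96e-06), and 3 were lower, *Acsl3* by -1.21 (SE 0.11, adjusted p = 4.24e-06) and *Acsl1* and *Dbi*, with a median of -0.10 (-0.12 to -0.00041 over the other scalings). There *Acsl5* fell by 0.41 with resveratrol (SE 0.11, adjusted p = 0.0254), 1 of 3 lower genes with the replicate block. Pinosylvin changed 0 genes in limma (3 lower at an unadjusted p under 0.05, and 3 with the replicate block), but this held for the scaling used here alone, since each of the 6 others called 1 to 3 lower, always with *Dbi* among them.

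Beside *Pnpla2*, the lipolysis and lipid droplet list had 4 of 12 genes tested, and with GR24 3 were higher and 1 lower, with a median of 0.67, though normexp before the 75th percentile gave 0.34 and the highest of the other scalings 0.81. *Abhd5*, whose protein activates adipose triglyceride lipase, rose by 1.40 (SE 0.079, adjusted p = 1.46e-07 in limma), and *Lipe*, the hormone-sensitive lipase, by 1.01 (SE 0.17, adjusted p = 0.000512), from a level that was well above background on 2 of 3 control arrays, and by 0.37 with normexp and the 75th percentile. *Cidea*, a lipid droplet protein, was lower with GR24, a call lost with 4 of the 6 other scalings (adjusted p up to 0.455). It was higher with pinosylvin by 0.68 (SE 0.14, adjusted p = 0.00774), called with all 6 and at least 0.32, and with resveratrol 0 of the 4 genes passed, also 0 at an unadjusted p under 0.05. Triglyceride synthesis genes had 6 of 10 higher and 3 lower with GR24, with a median of 0.52. *Gpam*, the mitochondrial acyltransferase that starts the synthesis, rose by 1.47 (SE 0.071, adjusted p = 4.69e-08). The phosphatidate phosphatase *Lpin1* was called higher too, but was well above background on only 1 of 3 control arrays, so no size is given. Neither stilbene changed a gene of this list in limma, 0 of 10 with each. At an unadjusted p under 0.05 there was 1 lower with pinosylvin and 0 with resveratrol. With the replicate block pinosylvin had 2 higher and 1 lower, and with other scalings up to 1 lower.

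The carnitine shuttle list, which holds *Cpt1b* and *Cpt2*, had 2 of 7 tested genes higher with GR24 and 1 lower, with a median of 0.16 (0.098 to 0.26 over the 6 other scalings). The liver form *Cpt1a* rose by 0.73 (SE 0.14, adjusted p = 0.00107 in limma) and the carrier *Slc25a20* by 0.36 (SE 0.11, adjusted p = 0.0151). *Crat* was lower, a call lost with 5 of the 6 other scalings (adjusted p up to 0.226). With resveratrol *Mlycd*, whose enzyme breaks down the inhibitor malonyl-CoA, was higher by 0.35 (SE 0.072, adjusted p = 0.00747), 1 of 2 higher genes with the replicate block, and with pinosylvin 0 of 7 passed (1 higher at an unadjusted p under 0.05). All 16 mitochondrial beta-oxidation genes were tested. With GR24 7 were higher, among them *Acadvl*, *Acadm* and the thiolase *Acaa2* by 0.82 (SE 0.11, adjusted p = 6.91e-05), and 3 were lower, *Decr1*, *Echs1* and *Etfb*. The median was 0.00090, negative with normexp and the 75th percentile, and with the replicate block 7 were higher and 7 lower. With pinosylvin 0 of 16 passed in limma (1 higher and 1 lower at an unadjusted p under 0.05, 2 and 2 with the replicate block, and up to 1 of each with other scalings). With resveratrol 2 were higher, *Hadh* by 0.51 (SE 0.070, adjusted p = 0.000796) and *Acad9* by 0.19 (SE 0.055, adjusted p = 0.0371), and 0 lower (1 at an unadjusted p under 0.05), or 6 and 1 with the replicate block. In the peroxisomal list 4 of 11 genes were higher with GR24 and 0 lower (also 0 at an unadjusted p under 0.05), with a median of 0.17 (0.16 to 0.27 over the other scalings, with 4 to 6 higher), among them *Pex11a* with 0.74 (SE 0.090, adjusted p = 4.29e-05). The transporter gene *Abcd2* fell by 0.65 with pinosylvin (SE 0.20, adjusted p = 0.0484), 1 of 2 lower genes with the replicate block. This call, just past the threshold, was lost with 5 of the 6 other scalings, with -0.40 (adjusted p = 0.0908) for normexp and the 75th percentile. With resveratrol 0 of 11 passed in limma, also 0 at an unadjusted p under 0.05, and 1 was lower with the replicate block.

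For the PPAR receptors and their partners, the list of *Ppard*, 4 of 8 tested genes were higher with GR24 and 0 lower (1 at an unadjusted p under 0.05, and 1 with the replicate block), with a median of 0.29. The partner receptor *Rxra* rose by 0.83 (SE 0.14, adjusted p = 0.000498 in limma) and *Esrra*, a regulator of mitochondrial genes, by 0.72 (SE 0.074, adjusted p = 1.28e-05), and with resveratrol *Esrra* rose by 0.35 (SE 0.074, adjusted p = 0.00893), 1 of 3 higher genes with the replicate block. Pinosylvin changed 0 of these 8 (1 higher at an unadjusted p under 0.05). Of 15 listed PPAR target genes of muscle 4 were not tested, *Pdk4* among them. The 11 tested genes all passed with GR24, 6 higher and 5 lower, beside 31.5% and 25.5% of all tested probes, with a median of 0.36. Of the lower genes, *Cd36* and *Ucp3* met the filter for testing only in groups other than GR24. *Ucp3*, a mitochondrial carrier of muscle, was lower together with *Cd36*, *Fabp3*, *Lpl* and *Ucp2*, at least 3.06-fold since it was not well above background on any GR24 array. As for *Cd36*, this bound holds for this background correction only, with 1.48-fold for normexp and the 75th percentile and 1.85-fold in the authors' table, both called. The higher genes included *Acaa2*, *Acot2*, *Angptl4*, *Cpt1a* and *Slc25a20*. With pinosylvin 3 of the 11 were higher, *Cd36*, *Fabp3* and *Acot2*, and 0 lower in limma (1 at an unadjusted p under 0.05, and 2 with the replicate block). With resveratrol *Acot2*, a mitochondrial acyl-CoA thioesterase, rose by 0.56 (SE 0.096, adjusted p = 0.00294), with *Cd36* and *Lpl* lower, or 1 to 3 lower with other scalings, and with the replicate block 2 were higher and 3 lower. In the pyruvate dehydrogenase list, which *Pdk4* belongs to, 4 of 8 tested genes were higher with GR24 (5 with each of the 6 other scalings, which added *Pdp2*) and 2 lower, with a median of 0.28. The subunit gene *Pdha1* fell by 0.89 (SE 0.081, adjusted p = 5.37e-06) and *Pdhb* rose by 0.50 (SE 0.097, adjusted p = 0.00125). Neither stilbene changed any of the 8 in limma, 0 with each, where an unadjusted p under 0.05 gave 1 higher and 1 lower with pinosylvin and 1 higher with resveratrol, the replicate block 1 higher with each, and 3 of the other scalings 1 higher with pinosylvin.

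**Figure D3:**
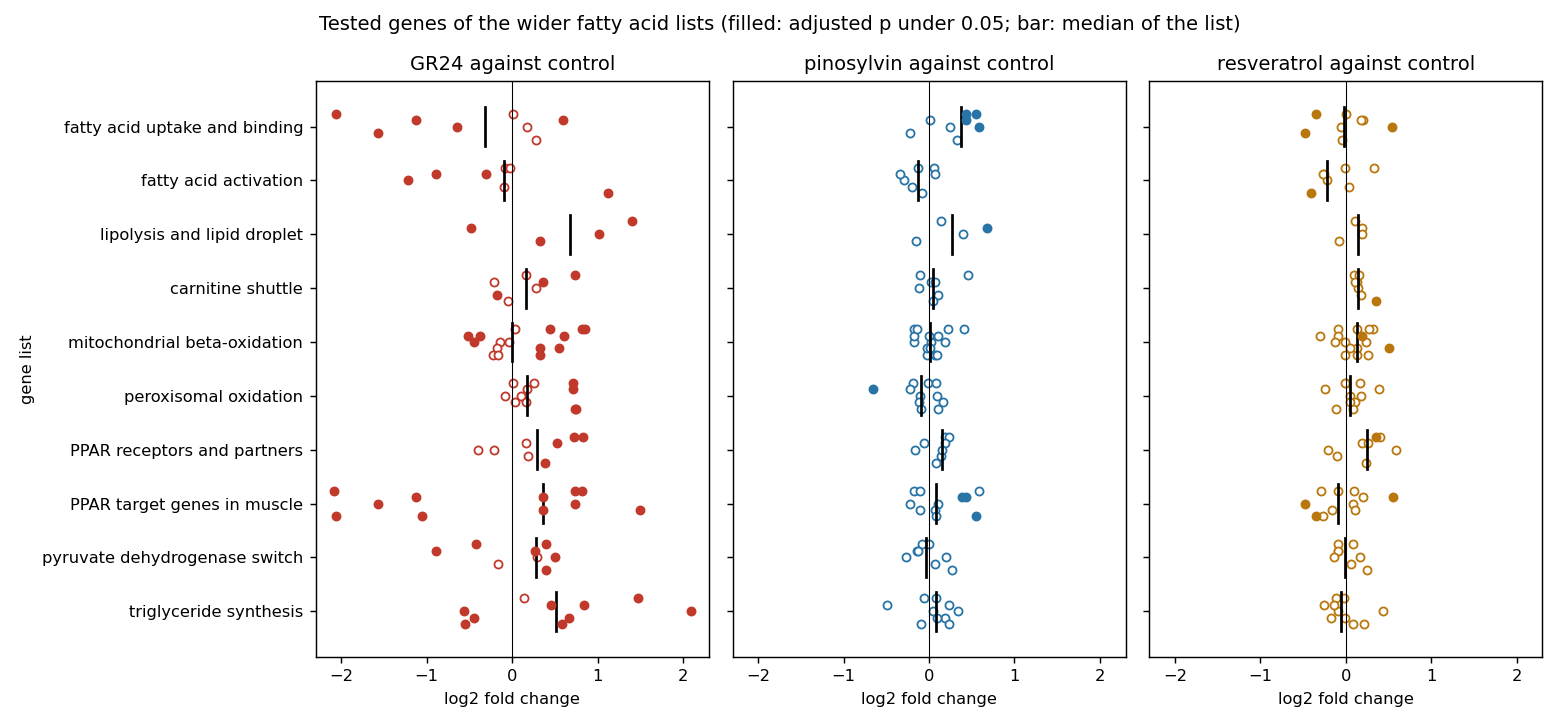
Log2 fold change against the control (x axis) of each tested gene of the 10 fatty acid lists (y axis) in 3 panels, with GR24, pinosylvin and resveratrol from left to right, filled where the adjusted p was under 0.05 and with a bar at the median of the list. With GR24 and this scaling the medians run from -0.32 for uptake and binding to 0.67 for lipolysis and lipid droplet, of which the latter was 0.34 with normexp and the 75th percentile.

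The cycling cell markers, 8 of 8 of which were lower with each compound, with medians of -2.28 with GR24, -1.48 with pinosylvin and -0.81 with resveratrol, moved with all these comparisons, as did undifferentiated cell markers with 3 higher and 5 lower of 10 with GR24, 2 and 4 with pinosylvin and 2 and 2 with resveratrol. For the adipocyte list, *Cfd* was higher with pinosylvin (0.41, adjusted p = 0.0222 in limma). The part of these markers in the fatty acid gene results was not tested.

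The promoters of *Cd36* and *Fabp3*, which moved together with GR24 and with pinosylvin, and of *Acadvl*, which held a match, are shown. RefSeq promoters of the rat assembly GRCr8 were found for 8 of the 10 genes, all but *Cpt1b* and *Ppard*, and were searched on both strands for DR1, the element that PPAR and RXR bind (AGGTCANAGGTCA), for its repeat unit alone (AGGTCA), which DR1 contains, and for the core of the antioxidant response element (TGACNNNGC). In the 250 bases before the start, DR1 occurred in 0 of the 8, against 0.0508% of all 33469 promoters, and TGACNNNGC in 0 of the 8, against 10.1%. Only exact letters were searched, so a site that differs from DR1 in a letter was not counted. At a share of 0.0508%, 0 of the 8 says little about DR1. The unit AGGTCA occurred in 1 of the 8, against 14.1%. That was *Acadvl*, with matches on the strand of the gene from 169 to 164 and from 17 to 12 bases before the start, shown in capitals. The match from 17 to 12 is followed by g and then tggtca. This differs from the unit in its first letter, so the stretch resembles DR1 without matching it. A match is a description of letters and no sign that a receptor binds there. The regions are chr4:18246332-18246581 on the plus strand for *Cd36* (45.6% G and C), chr5:147935875-147936124 on the plus strand for *Fabp3* (65.6%) and chr10:55236706-55236955 on the minus strand for *Acadvl* (53.6%), written 5′ to 3′ along the gene.
Cd36: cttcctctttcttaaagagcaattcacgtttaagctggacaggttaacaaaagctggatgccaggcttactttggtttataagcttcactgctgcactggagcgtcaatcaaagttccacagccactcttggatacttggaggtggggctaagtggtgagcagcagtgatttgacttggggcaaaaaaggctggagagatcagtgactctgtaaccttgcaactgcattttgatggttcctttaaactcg
Fabp3: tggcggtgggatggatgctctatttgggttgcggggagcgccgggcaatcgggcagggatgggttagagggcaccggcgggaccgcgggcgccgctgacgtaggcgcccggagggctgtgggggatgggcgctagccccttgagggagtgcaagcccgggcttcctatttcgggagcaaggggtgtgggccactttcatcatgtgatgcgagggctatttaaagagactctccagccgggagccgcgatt
Acadvl: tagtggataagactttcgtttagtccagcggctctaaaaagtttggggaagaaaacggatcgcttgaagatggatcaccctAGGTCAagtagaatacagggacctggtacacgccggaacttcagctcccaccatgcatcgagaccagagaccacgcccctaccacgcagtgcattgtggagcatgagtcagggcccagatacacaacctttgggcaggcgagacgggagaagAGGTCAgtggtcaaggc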

How the data were processed

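RNA of 12 samples was measured on Agilent 1-colour arrays. For each array the authors deposited the output of Agilent Feature Extraction 12.0.0.7, as named in the labels: processed signals are intensities from which the background was subtracted within the array, without normalization between arrays, beside median intensities of spots and of the background around them. The authors also deposited a table of log2 values normalized between arrays by a method they do not state, which was used as an alternative. From the processed signal, control spots were left out and log2 was taken. Outlier spots were then set to missing and the log2 values of a probe's spots averaged. The 75th percentile over probes was subtracted per array. The 24278 tested probes had signal well above background on 3 of 3 arrays of some group, and for 87.3% of them on all 12. limma 3.58.1 in R 4.3.3 fitted a mean per group to the 12 arrays, with eBayes and Benjamini-Hochberg adjustment over these probes at 0.05, for 6 contrasts, after checks on simulated data. A RefSeq accession, without version, gave the gene through the GRCr8 gene table (21109 of 45598 probes, 46.3%), and a gene was represented by its brightest probe on average. Bounds set the bright mean against, per array, whichever was higher, the dim probe's own signal or the array's lowest well-above-background signal.

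Deviations from the group means correlated at 0.191 to 0.744 between control and treated arrays of the same replicate number. Arrays of different replicate numbers were not compared in this way, and replicate 3 was alone on slide 2. These values therefore cannot tell a pairing by experiment from a difference between slides. Fits with the replicate block are given where they changed a call or moved a count by more than 1.5 times. All 10 genes are named. From the wider lists, the genes named with full values are the 2 with the largest absolute change per list and compound among those that passed and did not overlap the control, and other names only go with a count. A gene that this rule names is not reported. *Lpin1*, which it also names, is given without a size. The 5 genes most like *Cd36* were ranked by Pearson's r, *Cd36* having the largest moderated F. The members, lists and markers were chosen with earlier results of these data known. Alternatives were quantile normalization, normexp (offset 50) with either scaling, the deposited table, a filter on dim probes left off or tightened to probes above background on all arrays, the percentile taken over the latter, only the 6 arrays compared, replicate or slide as a block, each slide alone, eBayes with trend and robust, the mean over a gene's probes, outlier spots kept, and each array left out. The 6 other scalings of the wider lists were quantile normalization, both uses of normexp, the deposited table, and the percentile over probes above background on all arrays or over spots, the last chosen after seeing the data.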

Additional observations from a re-analysis of the deposited data

How the results depend on the processing

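Over the 6 comparisons and the 9 tested genes, other settings that gave a test had 858 results, of which 774 kept their direction and their side of the threshold, 22 lost a call, 60 gained one and 2 changed sign. The 324 results with an array left out kept both in 291, lost a call in 20, gained one in 3 and changed sign in 10. The changes of sign were of values that passed in neither fit, and their cause was not tested. For pinosylvin against the control, *Acadm* was -0.013 with the percentile over probes above background on all arrays, and with arrays left out *Acadm* ran from -0.033 to 0.051, *Cpt1b* from -0.026 to 0.088, *Cpt2* from -0.22 to 0.0072 and *Ppard* from -0.015 to 0.23. For pinosylvin against resveratrol, normexp before the 75th percentile gave *Ppard* a value of 0.017. With arrays left out *Acadvl* ran from -0.027 to 0.23 and *Pnpla2* from -0.15 to 0.019. Slide 2 alone, which gave no test and is not in these totals, changed the sign of 3 values that had not passed, to -0.042 for *Acadm* and -0.013 for *Ppard* with pinosylvin and -0.0062 for *Cpt2* with resveratrol. The GR24 and pinosylvin calls of *Fabp3* and the GR24 calls of *Acadm* and *Acadvl* against the control were not lost in any setting that gave a test, with ranges of -1.18 to -1.02 for *Fabp3* with GR24, 0.27 to 0.42 for *Acadm* and 0.73 to 0.98 for *Acadvl*. The size of the *Cd36* changes moved with the background correction in all 6 comparisons. Signal over background limits what can be said of *Cd36* with GR24 and of *Pdk4*.

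Counts of members moved as follows, and the cause was not tested unless the setting itself shows it. With no filter on dim probes, where more probes enter the adjustment, 2 genes were higher for GR24 against the control, 2 for GR24 against pinosylvin and 1 for GR24 against resveratrol. The shares of all probes called higher were then 15.4%, 14.2% and 13.4%, beside 31.5%, 29.6% and 27.4% in the main fit. With only the 6 arrays compared, 2 were higher for GR24 against pinosylvin, where 28.2% of tested probes were higher. With only probes above background on all arrays, which drops *Cd36*, 1 was lower with GR24 and 1 higher with pinosylvin against the control, and 0 were higher for pinosylvin against resveratrol. The matching shares of those probes were 25.5% lower, 9.54% higher and 8.46% higher. For pinosylvin against resveratrol, 2 were higher with normexp and quantile normalization, with the replicate block, with the slide as a block, with the percentile over spots and with the slide as a block in the deposited table, and 1 was lower with the replicate block, with the slide as a block and with the slide as a block in the deposited table. Of all tested probes 7.68% were higher and 6.85% lower in the main fit. The shares were 14.4% and 11.6% with the replicate block and 14.7% and 11.9% with the slide as a block. They were 10.3% and 11.3% with the slide as a block in the deposited table. Normexp and quantile normalization had 6.83% higher, and the percentile over spots 10.4%. For resveratrol against the control, 1 was higher with quantile normalization, normexp and quantile normalization, the deposited table, the percentile over probes above background on all arrays, only those probes, slide 1 only, eBayes with trend and robust, and the percentile over spots, 3 were with the replicate block, 4 with the slide as a block and 2 with the slide as a block in the deposited table. In the fits with 1 higher, 7.83% to 10.1% of tested probes were higher, and in the last 3 named 14.1%, 14.5% and 13.7%. For resveratrol against the control 0 were lower with quantile normalization, normexp with either scaling, the deposited table with or without the slide as a block, only probes above background on all arrays, only the 6 arrays compared, and eBayes with trend and robust, by the call of *Cd36*. In these fits 6.69% to 10.9% of tested probes were lower. The percentile over spots and the slide as a block in the deposited table were chosen after seeing the data. The former moved the median over all tested probes of GR24 against resveratrol from 0.024 to 0.14 and the higher and lower calls from 6662 and 5810 to 8707 and 4875. Among the 9 genes the replicate block changed no other call than those given beside the results.

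With arrays left out one by one, the higher and lower counts were 2 to 3 and 2 to 2 for GR24 against the control, 2 to 4 and 2 to 3 against pinosylvin, and 1 to 3 and 3 to 4 against resveratrol. They were 2 to 2 and 0 to 0 for pinosylvin, 0 to 0 and 1 to 1 for resveratrol, and 1 to 1 and 0 to 0 for pinosylvin against resveratrol. Shares of all tested probes, higher and lower, were 28% to 31.2% and 23.5% to 25.3% for GR24 against the control. Against pinosylvin they were 25.9% to 29.6% and 24% to 26.7%, and against resveratrol 23.6% to 27.5% and 21.8% to 23.5%. For pinosylvin they were 5.09% to 7.46% and 6.3% to 7.6%, and for resveratrol 4.91% to 6.69% and 6.37% to 9.35%. Pinosylvin against resveratrol had 4.47% to 6.31% and 4.24% to 5.28%. Calls gained were *Acadm* without GR24 replicate 3 (adjusted p = 0.0337) and *Cpt1b* without GR24 replicate 1 (adjusted p = 0.0402) or resveratrol replicate 2 (adjusted p = 0.0132), for GR24 against resveratrol in limma.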
